A study of Mus musculus with 7 samples.

Results

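Uptake and recycling of the transmitters glutamate and GABA were followed through 8 genes, taken by symbol from the 31053 genes of the matrices, each symbol occurring once. They were Slc1a2, Slc1a3 and Slc1a1 (glutamate uptake), Slc6a11 (GABA uptake), Slc6a9 (glycine uptake, although the set is named for glutamate and GABA), Glul (glutamine synthesis), and Slc38a3 and Slc38a1 (glutamine transport). Transmitter released at a synapse is cleared by sodium-driven transporters, much of it into astrocytes, which turn glutamate into glutamine and hand the glutamine back to neurons. Neurons then make glutamate, and from it GABA, again. In the rodent forebrain the GLT-1 and GLAST proteins of Slc1a2 and Slc1a3 carry most glutamate uptake, and Slc1a2 is known as a late marker of astrocyte maturation, while radial glia already carry Slc1a3.

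The cells came from hippocampi of newborn (postnatal day 0) mice, dissociated with trypsin and grown as primary mixed cultures in medium with serum and B-27 supplement, with no other treatment named. Single-cell 3' libraries were made at 1, 3, 5 and 7 days in vitro (DIV), 1 library at DIV1 and 2 at each later day. Strain is not among the labels. Whether the 2 libraries of a day came from different cultures is not stated either, so every p-value here rests on a spread that could be purely technical. Each library was a whole dish of mixed cells and not a purified type.

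The libraries held 36226566 to 114119537 unique molecular identifiers (UMIs), with medians of 6988 to 19595 per barcode, and 26532 of 28846 barcodes were used. Pairs of libraries shared 12 to 37 barcode sequences. In DIV7 replicate 1 the limit on mitochondrial UMIs removed 15.8% of barcodes, against 1.00% to 5.34% in the other libraries. Cells were clustered without the 8 genes and named from marker lists, which gave 9732 radial glia or astrocyte-like (astrocyte-like below), 480 GABAergic neuron-like and 4686 glutamatergic neuron-like cells. The astrocyte-like class spans immature and mature glia. It held 889 cells at DIV1, 1729 and 1004 in the DIV3 libraries, 1404 and 1661 at DIV5, and 1044 and 2001 at DIV7. All 10 glia genes of a check list, among them Aqp4, Gja1, Aldoc, Mlc1, Gfap, Sox9, Hes5, Fabp7 and Ntsr2, were higher in astrocyte-like than in glutamatergic neuron-like sums, but they are also among the markers that named the class, so this is no independent check of the name. A further 3362 cycling and 1503 unnamed cells entered no class comparison. Levels are given as CPM, the UMIs of a gene scaled to the total UMIs of a sum (counts per 1e6), in the sum over a class within a library. They are compared within a gene and not between genes.

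Of the 8 genes, 3 were higher and 2 lower in astrocyte-like than in glutamatergic neuron-like cells over the 7 libraries, and 3 did not pass the test. The test was edgeR's quasi-likelihood test with the library as a block and Benjamini-Hochberg adjustment, and it called 70.9% of the 13174 genes tested (37.1% higher and 33.9% lower), so that 5 of 8 is no result about the members as a group. Slc1a3, Glul and Slc38a3 were the higher ones and Slc1a1 and Slc6a11 the lower ones. For these 5 the class levels did not overlap, and their calls held under every alternative run. How many of all genes tested did not overlap was not counted, so this too is no result about the members as a group. Slc1a2, Slc38a1 and Slc6a9 overlapped between the classes. The median log2 change of the 8 genes was 0.86, and that of all genes tested was 0.07.

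**Figure D1:**
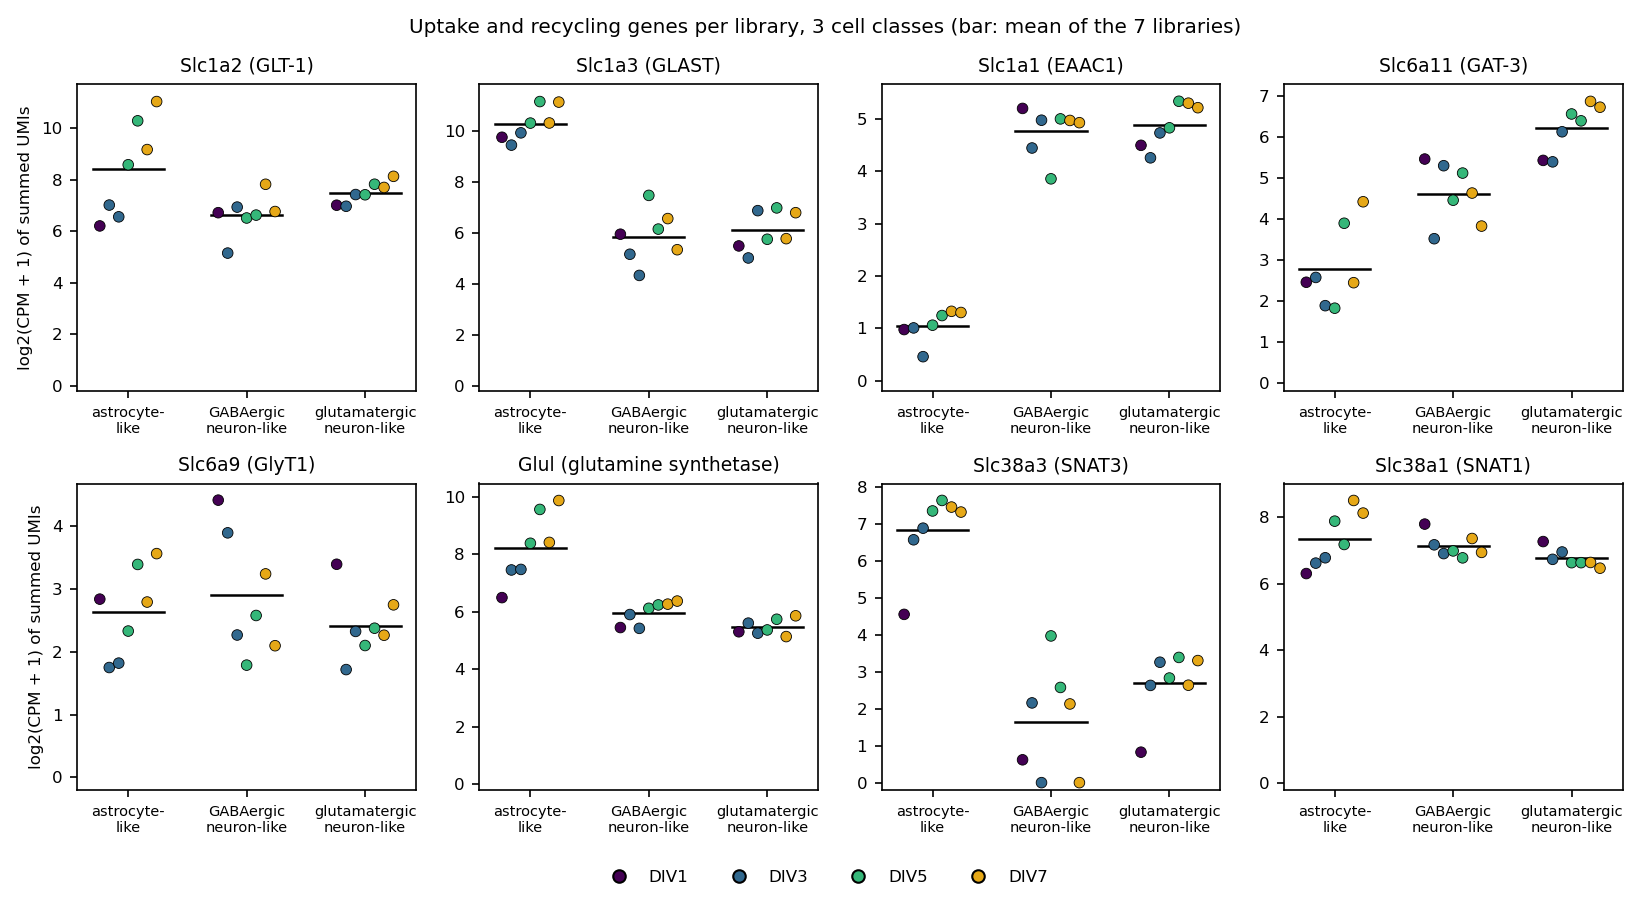
Each panel plots 1 gene as log2(CPM + 1) of summed UMIs (vertical axis) in astrocyte-like, GABAergic neuron-like and glutamatergic neuron-like cells. Points are the 7 libraries coloured by day and bars their means. Slc1a3, Glul and Slc38a3 lie higher in astrocyte-like cells in all 7 libraries, Slc1a1 and Slc6a11 lower in all 7, and the astrocyte-like Slc1a2 points spread from 73.2 to 2111 CPM.

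Slc1a3 encodes GLAST, the glutamate transporter of radial glia and astrocytes. Its level in astrocyte-like cells was 855 CPM at DIV1, 690 and 964 CPM in the DIV3 libraries, 1256 and 2255 CPM at DIV5, and 1260 and 2223 CPM at DIV7. In glutamatergic neuron-like cells it was 43.7 CPM at DIV1, 31.3 and 115.7 CPM at DIV3, 52.7 and 124.7 CPM at DIV5, and 53.5 and 109.4 CPM at DIV7. The lowest astrocyte-like value stood above the highest neuronal one, and within a library the ratio was 8.33 to 23.9. The fitted log2 change was 4.33 ± 0.20 (SE; edgeR quasi-likelihood adjusted p = 1.62e-08).

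Glul encodes glutamine synthetase, the enzyme that joins glutamate and ammonia to glutamine and is a classical astrocyte protein. Astrocyte-like cells had 89.3 CPM at DIV1, 175 and 177 CPM at DIV3, 334 and 757 CPM at DIV5, and 341 and 938 CPM at DIV7. Glutamatergic neuron-like cells had 38.6 CPM at DIV1, 47.8 and 37.3 CPM at DIV3, 40.4 and 52.6 CPM at DIV5, and 34.3 and 57.2 CPM at DIV7. The classes did not overlap, but the ratio within a library ran from 2.31 at DIV1 to 16.4 in DIV7 replicate 2. The log2 change was 2.90 ± 0.32 (edgeR quasi-likelihood adjusted p = 1.09e-05).

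Slc38a3 encodes SNAT3, which moves glutamine across the astrocyte membrane. It averaged 134 ± 60.3 CPM in astrocyte-like cells and 6.34 ± 3.03 CPM in glutamatergic neuron-like cells (SD, n = 7 libraries each). The DIV1 library had the lowest value in both classes, with 22.6 CPM in astrocyte-like cells and 0.77 CPM in neuron-like cells, and the astrocyte-like values of the later days lay between 94.8 and 199.5 CPM. The classes did not overlap (log2 change 4.53 ± 0.17, edgeR quasi-likelihood adjusted p = 4.38e-09).

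Slc1a1 encodes EAAC1, the glutamate transporter known from neurons. It was at 0.4 to 1.5 CPM in astrocyte-like cells, against 18.2 to 39.6 CPM in glutamatergic neuron-like cells, so that the neuronal level was 18.0 to 68.9 times the astrocyte-like one within a library. The astrocyte-like sums held only 5 to 35 Slc1a1 UMIs each, and the ratio of 68.9 came from DIV3 replicate 2, with 5. The log2 change was -4.60 ± 0.21 (edgeR quasi-likelihood adjusted p = 1.41e-08).

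Slc6a11 encodes GAT-3, a GABA transporter that in adult rodent brain is known mainly from astrocytes. Here astrocyte-like cells had 4.5 CPM at DIV1, 4.9 and 2.7 CPM at DIV3, 2.5 and 13.8 CPM at DIV5, and 4.4 and 20.3 CPM at DIV7. Glutamatergic neuron-like cells had 41.9 CPM at DIV1, 40.8 and 68.5 CPM at DIV3, 92.9 and 82.6 CPM at DIV5, and 115.2 and 104.3 CPM at DIV7. Every neuronal value stood above every astrocyte-like one (log2 change -3.50 ± 0.38, edgeR quasi-likelihood adjusted p = 1.06e-05), and no named class had a higher median. With each cell thinned to 3000 UMIs, 0.88% to 5.46% of astrocyte-like and 8.93% to 27.6% of glutamatergic neuron-like cells had a Slc6a11 UMI, against 0% to 1.80% of microglia-like cells.

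For Slc1a2, which encodes GLT-1, the order of the classes turned with the day. Astrocyte-like cells had 73.2 CPM at DIV1 (exact Poisson 95% interval 67.5 to 79.3, counting error only), 129.1 and 93.8 CPM at DIV3, 384 and 1256 CPM at DIV5, and 579 and 2111 CPM at DIV7. Glutamatergic neuron-like cells had 128.6 CPM at DIV1 (122 to 135), 125.0 and 171.7 CPM at DIV3, 170.7 and 227.0 CPM at DIV5, and 208 and 281 CPM at DIV7. The astrocyte-like level was above the neuronal one in 1 of the 3 libraries of DIV1 and DIV3 and in all 4 of DIV5 and DIV7, with ratios of 0.55 to 1.03 in the first and 2.25 to 7.51 in the second. Over all days the difference did not pass the test (log2 change 1.02 ± 0.46, edgeR quasi-likelihood adjusted p = 0.0670), and it passed in 7 of 22 alternatives, with adjusted p-values of 0.0139 to 0.651 over all of them.

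Slc38a1 encodes SNAT1, the glutamine transporter through which neurons are known to take up glutamine. Its astrocyte-like level was 77.8 CPM at DIV1, 96.9 and 108.5 CPM at DIV3, 234 and 143 CPM at DIV5, and 360 and 276 CPM at DIV7. Its level in glutamatergic neuron-like cells was 152 CPM at DIV1, 105 and 122 CPM at DIV3, 97.8 and 97.9 CPM at DIV5, and 98.3 and 87.1 CPM at DIV7. The neuronal level was the higher one in the 3 libraries of DIV1 and DIV3 and the astrocyte-like level in the 4 of DIV5 and DIV7. The difference over all days did not pass the test (log2 change 0.69 ± 0.30, edgeR quasi-likelihood adjusted p = 0.0610), but it passed in 10 of 22 alternatives, with adjusted p-values of 0.00984 to 0.207 over all of them.

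Slc6a9 encodes GlyT1, a glycine transporter. It stayed low in both classes, at 5.91 ± 3.28 CPM in astrocyte-like and 4.69 ± 2.37 CPM in glutamatergic neuron-like cells (SD, n = 7 libraries each), and the values overlapped (log2 change 0.35 ± 0.24, edgeR quasi-likelihood adjusted p = 0.215).

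The levels of glial genes in neuron-like sums were read beside the levels of glia markers there. Per library the 10 glia genes together stood in glutamatergic neuron-like sums at 2.92% to 8.51% of their astrocyte-like level, and none was at 0. Single genes had medians of 2.28% (Aqp4) to 29.5% (Sox9). The neuronal level was 4.92% of the astrocyte-like one for Slc1a3, 4.76% for Slc38a3 and 12.1% for Glul (medians over libraries), all within the range of the marker medians, and 44.4% for Slc1a2, above it. In single libraries Slc1a2 stood above the highest marker at DIV1, at DIV3 and in replicate 1 of DIV5 and DIV7. It stood below in replicate 2 of DIV5 (18.1% against 47.7%) and DIV7 (13.3% against 33.3%). In DIV7 replicate 2 microglia-like cells had 271 CPM of Slc1a2 and glutamatergic neuron-like cells 281 CPM. In the other libraries the ranges were 15.2 to 75.9 CPM and 125.0 to 227.0 CPM. How much RNA from other cells lies in the neuronal values was not tested.

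With cells thinned to 3000 UMIs, 82.9% to 98.4% of astrocyte-like cells of a library had a Slc1a3 UMI, against 5.89% to 19.1% of glutamatergic neuron-like cells. Microglia-like cells, not known for it, had 8.33% to 20.6%, a range that overlaps the neuronal one. Without thinning the medians over libraries for Slc1a3 were 97.8% of astrocyte-like, 32.4% of glutamatergic neuron-like and 23.0% of microglia-like cells. Slc1a2 was seen in 20.1% to 87.6% of astrocyte-like, 26.03% to 43.8% of glutamatergic neuron-like and 1.39% to 15.8% of microglia-like cells, and the lowest neuronal share lay above the highest microglial one. Without thinning the Slc1a2 medians were 79.7% of astrocyte-like, 68.9% of glutamatergic neuron-like and 23.0% of microglia-like cells. Thinning left out 441 astrocyte-like, 363 glutamatergic neuron-like and 92 microglia-like cells under 3000 UMIs. The library medians were 8193 to 19796 UMIs in astrocyte-like, 5736 to 16902 UMIs in glutamatergic neuron-like and 9662 to 21164 UMIs in microglia-like cells.

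The share of cells in which both astrocyte glutamate transporters were seen was higher on the later days. Of astrocyte-like cells thinned to 3000 UMIs, 17.8% at DIV1 had a UMI of both Slc1a2 and Slc1a3, 24.7% and 21.5% in the DIV3 libraries, 49.7% and 82.2% at DIV5, and 56.7% and 86.5% at DIV7. Cells with Slc1a2 alone were 0.56% to 4.14% of a library's astrocyte-like cells. A Glul UMI was found in 82.9% of the cells with Slc1a2 in DIV7 replicate 2 and in 47.2% of those without, and at DIV1 in 25.7% and 20.6%. These are shares of cells of 1 library each, given as a description.

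The sequence around a listed transcription start is shown for the 3 glutamate-cycle genes of astrocytes (Slc1a2, Slc1a3, Glul) and for both genes that were higher in neurons (Slc1a1, Slc6a11). These are RefSeq windows of assembly GRCm38.p6, 250 bases before to 50 after the start, 5′ to 3′ on the gene's strand, with every CG dinucleotide in capitals. Windows were found for 6 of the 8 genes, and 3 starts are listed for Slc6a9.
Slc1a2: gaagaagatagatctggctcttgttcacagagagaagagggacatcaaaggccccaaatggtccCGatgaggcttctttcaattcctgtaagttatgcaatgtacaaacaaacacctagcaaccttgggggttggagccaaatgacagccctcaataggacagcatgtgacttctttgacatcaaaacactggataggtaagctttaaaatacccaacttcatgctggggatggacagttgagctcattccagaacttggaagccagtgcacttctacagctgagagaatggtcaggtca
Slc1a3: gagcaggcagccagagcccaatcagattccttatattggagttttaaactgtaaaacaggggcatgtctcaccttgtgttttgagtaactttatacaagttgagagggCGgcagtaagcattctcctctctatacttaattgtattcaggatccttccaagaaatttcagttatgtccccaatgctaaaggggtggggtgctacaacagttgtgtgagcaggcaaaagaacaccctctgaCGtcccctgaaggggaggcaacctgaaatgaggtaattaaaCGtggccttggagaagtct
Glul: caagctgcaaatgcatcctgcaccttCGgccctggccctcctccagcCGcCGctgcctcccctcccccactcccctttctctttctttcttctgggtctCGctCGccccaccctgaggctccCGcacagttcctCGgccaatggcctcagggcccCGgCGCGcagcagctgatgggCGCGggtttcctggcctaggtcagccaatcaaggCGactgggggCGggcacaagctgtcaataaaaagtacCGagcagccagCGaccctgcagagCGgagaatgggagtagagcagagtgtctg
Slc1a1: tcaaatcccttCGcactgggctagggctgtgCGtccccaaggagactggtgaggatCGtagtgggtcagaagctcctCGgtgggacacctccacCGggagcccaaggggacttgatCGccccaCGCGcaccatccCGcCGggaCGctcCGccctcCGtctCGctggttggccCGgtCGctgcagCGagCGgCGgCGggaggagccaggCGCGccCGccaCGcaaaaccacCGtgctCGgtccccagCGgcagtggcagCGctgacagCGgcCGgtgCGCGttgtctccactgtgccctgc
Slc6a11: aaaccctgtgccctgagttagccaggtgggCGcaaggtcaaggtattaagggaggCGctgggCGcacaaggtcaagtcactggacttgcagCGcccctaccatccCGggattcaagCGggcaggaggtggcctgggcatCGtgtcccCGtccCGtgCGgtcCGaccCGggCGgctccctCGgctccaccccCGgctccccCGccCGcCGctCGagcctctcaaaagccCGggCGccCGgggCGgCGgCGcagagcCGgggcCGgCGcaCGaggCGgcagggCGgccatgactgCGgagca
The windows lie at chr2:102706188-102706487 (plus strand) for Slc1a2, chr15:8710758-8711057 (minus strand) for Slc1a3, chr1:153899679-153899978 (plus strand) for Glul, chr19:28834885-28835184 (plus strand) for Slc1a1 and chr6:114130991-114131290 (plus strand) for Slc6a11. The Slc1a2 window holds 1 CG dinucleotide, Slc1a3 holds 3 and Glul 17, while Slc1a1 and Slc6a11 hold 32 each. Of all 32851 windows of this length 94.6% hold at least 1, and the median is 7. The motif searched was CG, which reads the same on both strands. Of all windows, 14.1% hold no more CG than Slc1a2, 31.4% no more than Slc1a3, 70.3% no more than Glul, and 91.4% no more than Slc1a1 or Slc6a11. The 3 Slc6a9 windows, not printed, hold 10, 14 and 8. The counts describe these windows only, and whether a window lies at the main start of its gene was not checked. The assembly differs from the mm9 build named for the counting.

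Across the 11 named classes with at least 3 libraries of 20 cells, the members peaked in different places. Slc1a3, Slc1a2 and Glul had their highest median in astrocyte-like cells (1256, 384 and 334 CPM). For all 3 the range overlapped that of the next named class, choroid plexus-like cells for Slc1a3 (375 to 1219 CPM) and Slc1a2 (24.4 to 452 CPM) and fibroblast-like cells for Glul (68.4 to 341 CPM). The cycling and unnamed cells were left out of this order. Their medians were 1103 and 897 CPM for Slc1a3, 216 and 255 CPM for Slc1a2 and 196 and 246 CPM for Glul, so that one or both stood above the next named class for each gene. Microglia-like cells, at 94.5 to 317 CPM of Glul, overlapped both. The 45 endothelial-like cells of the DIV1 library had 568 CPM of Glul, above each of the other classes there.

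**Figure D2:**
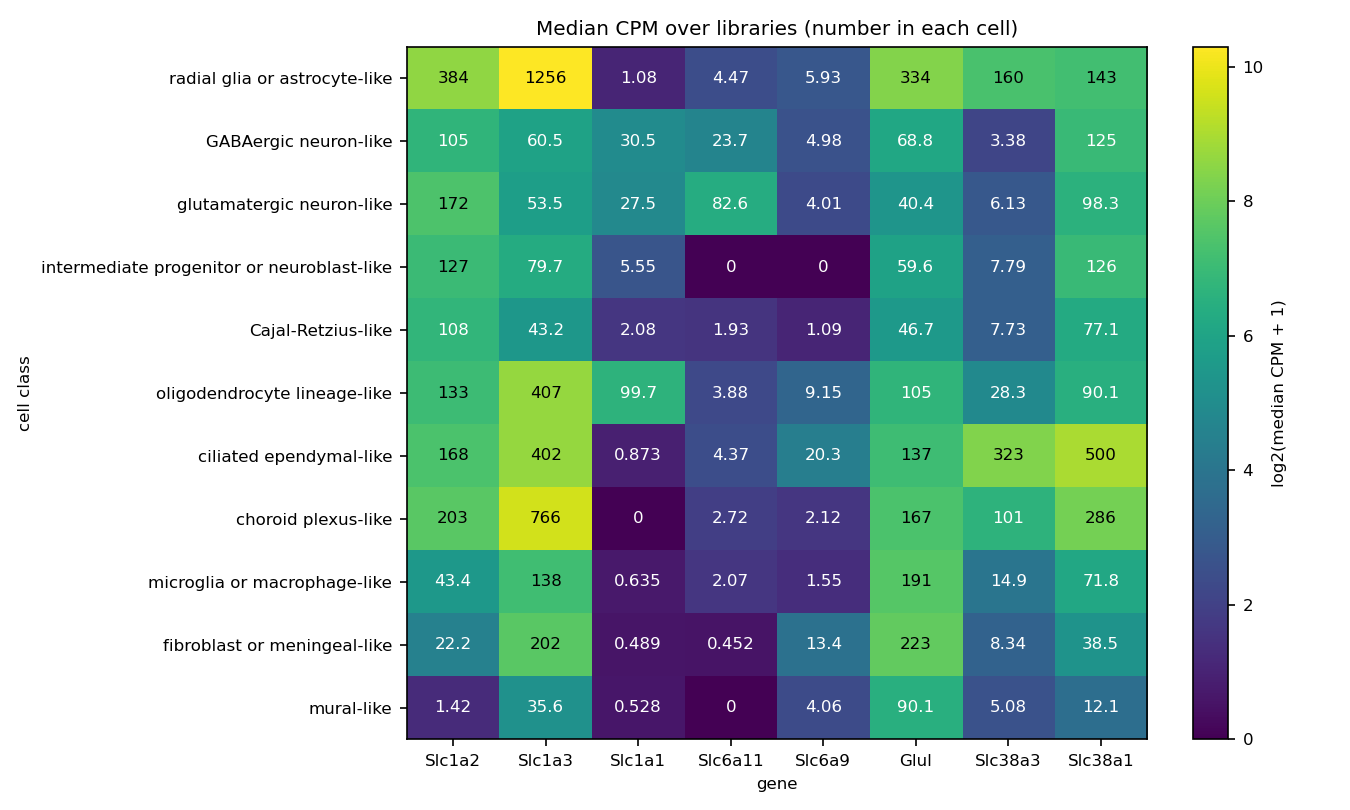
Rows are 11 cell classes and columns the 8 genes. Each cell gives the median CPM over libraries, and its colour is log2(median CPM + 1). Slc1a1 has its highest median in oligodendrocyte lineage-like cells (99.7 CPM), Slc38a1, Slc38a3 and Slc6a9 in ciliated ependymal-like cells, and Slc6a11 in glutamatergic neuron-like cells (82.6 CPM). Medians cover the libraries with at least 20 cells of a class, for ciliated ependymal-like cells those of DIV5 and DIV7 only.

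Slc1a1, low in astrocyte-like cells, was highest in oligodendrocyte lineage-like cells. Libraries with at least 20 of these cells gave 50.8 CPM at DIV1, 130.2 and 170.2 CPM at DIV3, 82.7 and 70.1 CPM at DIV5, and 116.7 CPM in DIV7 replicate 2, while DIV7 replicate 1 had only 7 such cells. No value overlapped those of GABAergic neuron-like cells (13.5 to 35.9 CPM) or glutamatergic neuron-like cells (18.2 to 39.6 CPM), whereas these 2 neuronal ranges overlapped each other.

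Both glutamine transporters had their highest median in ciliated ependymal-like cells, the multiciliated lining cells of the ventricles. These cells reached 20 only in the 4 libraries of DIV5 and DIV7. The astrocyte-like and choroid plexus-like medians also include DIV1 and DIV3, so the medians cover unlike days. At DIV5 and DIV7 astrocyte-like cells had 143 to 360 CPM of Slc38a1 and 160 to 199.5 CPM of Slc38a3. Slc38a1 was at 450 and 480 CPM in the DIV5 libraries and 520 and 575 CPM at DIV7 there. Slc38a3 was at 193 and 345 CPM at DIV5 and 317 and 330 CPM at DIV7. Choroid plexus-like cells came next for Slc38a1 (122 to 598 CPM) and astrocyte-like cells for Slc38a3 (22.6 to 199.5 CPM), and both ranges overlapped the ciliated one. The unnamed cells, with medians of 319 CPM for Slc38a1 and 249 CPM for Slc38a3, stood between these classes. Slc6a9 was low everywhere, with its highest median, 20.3 CPM, in ciliated ependymal-like cells and 13.4 CPM in fibroblast-like cells, whose ranges overlapped. Mural-like cells had the lowest median of Slc1a2, 1.42 CPM, over the 4 libraries with at least 20 of them. These were DIV1, both of DIV3 and DIV5 replicate 1, while the DIV7 libraries held only 6 and 4 such cells.

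GABAergic neuron-like cells were compared with glutamatergic ones over the same 7 libraries, of which 3 held only 25 to 29 GABAergic cells. Slc6a11 and Slc1a2 were lower and Glul and Slc38a1 higher in GABAergic cells, so that 4 of the 6 members tested were called, against 21.4% of all genes tested (10.9% higher and 10.5% lower). Slc1a1 and Slc1a3 did not pass the test, and Slc38a3 and Slc6a9 were too low to be tested.

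Slc6a11 was at 42.8 CPM in GABAergic cells at DIV1, 10.4 and 38.2 CPM at DIV3, 20.9 and 33.6 CPM at DIV5, and 23.7 and 13.1 CPM at DIV7, each time but DIV1 below the glutamatergic cells of the same library. The log2 change was -1.37 ± 0.29 (edgeR quasi-likelihood adjusted p = 0.00549), lower in 6 of 7 libraries. These GABAergic values rest on few Slc6a11 UMIs, from 80 at DIV1 down to 4 in DIV7 replicate 2 and 3 in DIV3 replicate 1. Slc1a2 averaged 112 ± 57.6 CPM in GABAergic and 187 ± 55.8 CPM in glutamatergic cells (SD, n = 7 libraries each) and was lower in 6 of 7 libraries (log2 change -0.73 ± 0.19, edgeR quasi-likelihood adjusted p = 0.0145).

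Glul was higher in GABAergic cells in all 7 libraries, at 63.6 ± 16.1 CPM against 44.0 ± 8.61 CPM in glutamatergic cells, although the ranges overlapped (log2 change 0.55 ± 0.15, edgeR quasi-likelihood adjusted p = 0.0145). Slc38a1 averaged 143 ± 38.4 CPM in GABAergic and 109 ± 22.1 CPM in glutamatergic cells and was higher in 6 of 7 libraries (log2 change 0.41 ± 0.11, edgeR quasi-likelihood adjusted p = 0.0136). Of the glia check list 8 genes were tested here and none passed edgeR's test (1 had an unadjusted p under 0.05). Their median log2 change was 0.41, against -0.01 over all genes, with Aqp4 at 37.4 ± 46.4 CPM in GABAergic and 24.1 ± 19.4 CPM in glutamatergic cells, and their part in the Glul difference was not tested. The calls for Glul and Slc38a1 ended with thinned cells (adjusted p = 0.296 and 0.241), with a stricter cell filter and without the library block. Slc1a2 also lost its call without the library block. Without DIV5 replicate 1 the adjusted p of Glul was 0.0603, without DIV7 replicate 1 those of Glul and Slc38a1 were 0.0648 and 0.0627, and without DIV5 replicate 2 that of Slc1a2 was 0.0535. Slc1a1 was at 27.4 ± 7.59 CPM in GABAergic and 29.6 ± 8.54 CPM in glutamatergic cells, a log2 change of -0.06 ± 0.19.

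**Figure D3:**
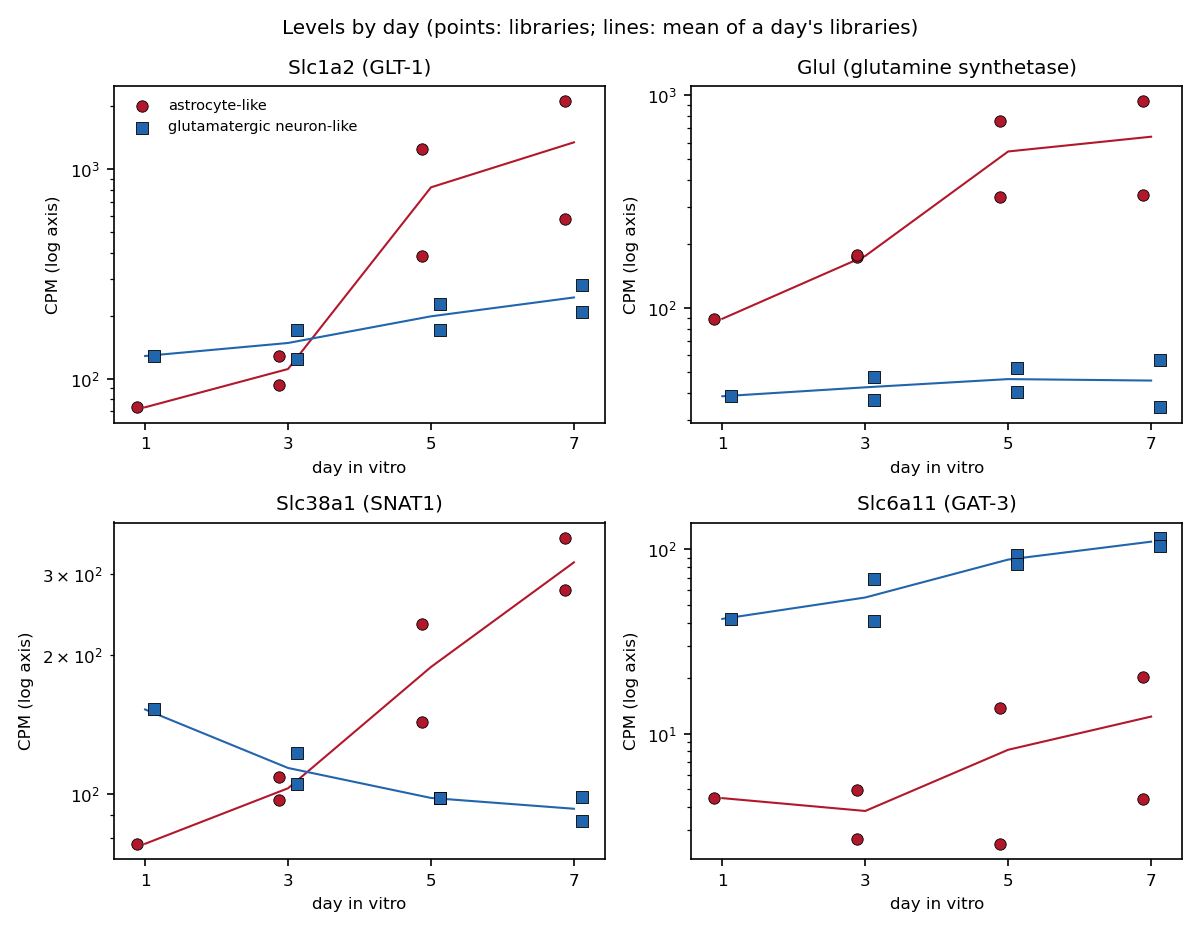
The panels plot CPM (log axis) of Slc1a2, Glul, Slc38a1 and Slc6a11 against the day in vitro. Circles are astrocyte-like and squares glutamatergic neuron-like sums, 1 point a library, with lines through the mean of each day. The Slc1a2 and Slc38a1 lines cross between DIV3 and DIV5, Glul climbs in astrocyte-like cells while its neuronal values stay between 34.3 and 57.2 CPM, and Slc6a11 stays higher in neurons throughout.

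Between the days, DIV7 was compared with DIV3 within each class, with all 7 libraries in the fit and DIV1 given as values only. In astrocyte-like cells all 8 log2 changes were above 0, with a median of 1.53 against 0.04 over all genes, and 2 passed the test, both higher, against 16.8% of all genes (7.6% higher and 9.17% lower). Slc1a2 was higher at DIV7 (1345 ± 1084 CPM) than at DIV3 (111 ± 25.0 CPM; SD, n = 2 libraries each), a log2 change of 3.49 ± 0.82 (edgeR quasi-likelihood adjusted p = 0.0361). Slc38a1 was higher too, at 318 ± 58.9 CPM at DIV7 and 103 ± 8.16 CPM at DIV3 (log2 change 1.48 ± 0.26, edgeR quasi-likelihood adjusted p = 0.0221). The DIV7 and DIV3 libraries did not overlap for either gene, which was not counted over all genes. Nor did they overlap for Glul, Slc1a3, Slc38a3, Slc6a9 or Slc1a1, which did not pass, so this does not set the called genes apart.

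Glul was at 639 ± 422 CPM at DIV7 and 176 ± 1.67 CPM at DIV3 and did not pass the test (log2 change 1.76 ± 0.59, edgeR quasi-likelihood adjusted p = 0.0840). Slc1a3 was at 1742 ± 681 CPM at DIV7 and 827 ± 193 CPM at DIV3 (adjusted p = 0.149), and Slc38a3 at 168 ± 11.2 CPM at DIV7 and 106 ± 16.5 CPM at DIV3 (adjusted p = 0.137, edgeR quasi-likelihood test). Slc6a9, at 8.38 ± 3.47 CPM at DIV7 and 2.45 ± 0.12 CPM at DIV3, had an adjusted p of 0.0741. Slc1a1 and Slc6a11 had adjusted p-values of 0.329 and 0.280. For Slc6a11 the DIV7 and DIV3 values overlapped.

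These calls rest on few libraries. For Slc1a2 the adjusted p was 0.158 without DIV3 replicate 1, 0.141 without DIV3 replicate 2 and 0.136 without DIV7 replicate 2, with log2 changes of 3.83, 3.22 and 2.17, and it was 0.187 with no low-count filter and 0.180 with a stricter cell filter. For Slc38a1 it was 0.102, 0.0555, 0.0647 and 0.0773 without DIV3 replicates 1 and 2 and DIV7 replicates 1 and 2, with log2 changes of 1.39 to 1.62, and 0.0705 in the clusters with their own markers on top. Without DIV7 replicate 2 the change of Slc6a11 was -0.02 and that of Glul 0.76. Scaling by total counts in place of TMM gave a median of 0.19 over all genes, against 0.04 with TMM, and 1328 genes higher and 815 lower, against 1112 higher and 1343 lower with TMM. It turned the direction of no member.

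Different clusters held the astrocyte-like class on the 2 days. At DIV7 it was mostly cluster 22, led by Wisp2 (765 of 1044 cells in replicate 1), and cluster 25, led by Slc1a2, Ntsr2, Gfap and Aqp4 (1320 of 2001 in replicate 2). At DIV3 it was mostly cluster 15, led by Lcn2 and the interferon genes Isg15 and Ifit3 (1635 of 1729 cells in replicate 1), and cluster 11, led by Pcp4 (696 of 1004 in replicate 2). Stage and cluster make-up cannot be told apart in these sums. The clusters were made from the other genes of the same cells, so their differences are given without a test.

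**Figure D4:**
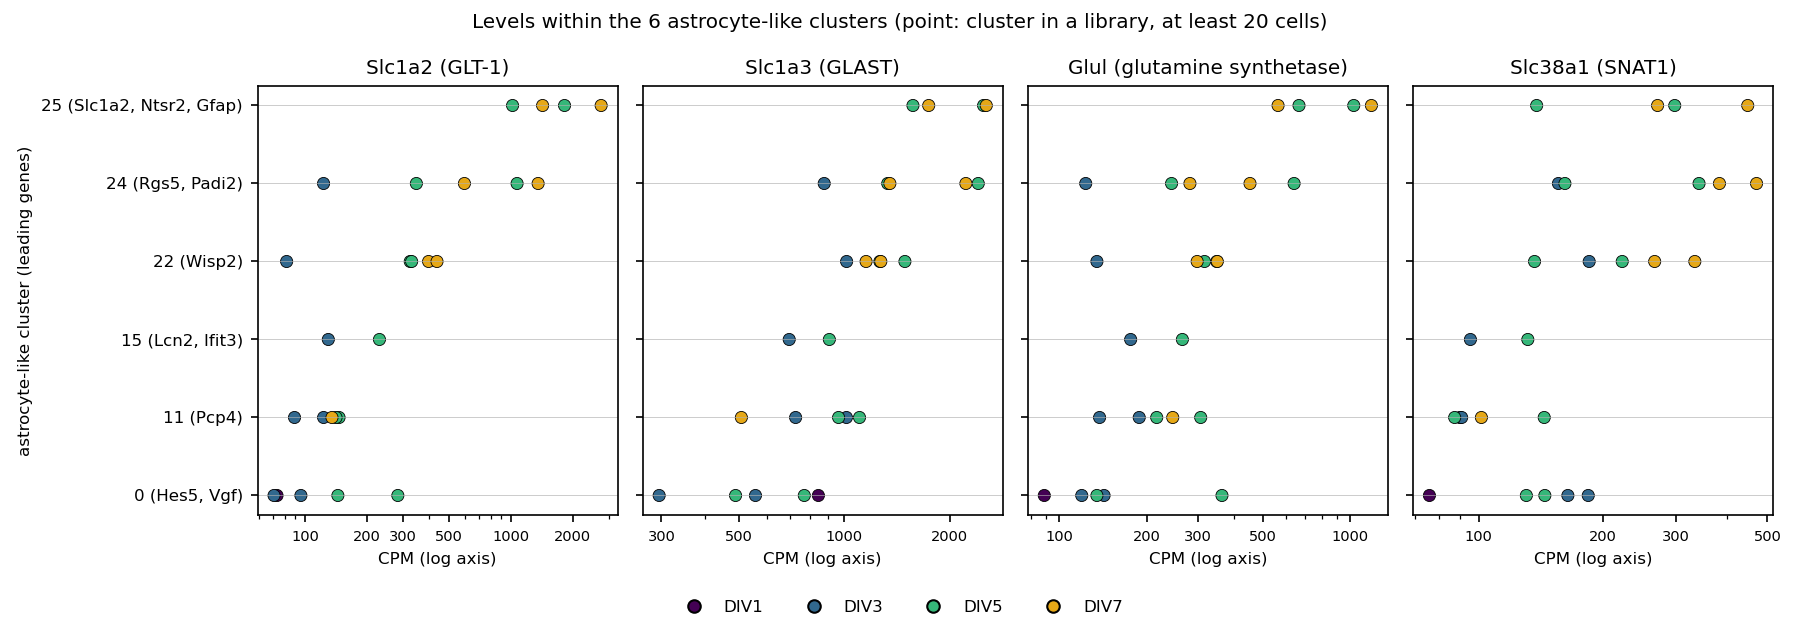
Rows are the 6 astrocyte-like clusters with their leading genes, and the horizontal axis is CPM (log axis) of Slc1a2, Slc1a3, Glul and Slc38a1. Each point is a cluster in 1 library with at least 20 cells, coloured by day. Cluster 25 has the highest Slc1a2, 1019 to 2744 CPM, and clusters 0, 11 and 15 stay between 70.9 and 283 CPM.

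Within clusters seen on both days the size of the difference varied. In cluster 24, led by Rgs5 and Padi2, Slc1a2 was at 595 and 1356 CPM in the DIV7 libraries and 123 CPM in DIV3 replicate 2, and in cluster 22 at 399 and 438 CPM at DIV7 and 81.6 CPM in DIV3 replicate 2. In cluster 11 it was at 135.5 CPM in DIV7 replicate 2 (64 cells) and 123.4 and 89.1 CPM at DIV3. Glul was higher at DIV7 in all 3, with 281 and 453 CPM at DIV7 and 123 CPM at DIV3 in cluster 24, 298 and 349 CPM at DIV7 and 135 CPM at DIV3 in cluster 22, and 246 CPM at DIV7 and 138 and 188 CPM at DIV3 in cluster 11. Without the Wisp2-led cluster, a setting added after the data were seen, 3084 of 14392 genes were called, 1511 of them higher, and 4 members were higher at DIV7, namely Slc1a2 (log2 change 4.03), Slc6a9 (2.09), Glul (2.13) and Slc38a1 (1.79).

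In glutamatergic neuron-like cells Slc6a11 alone of the 8 genes passed the test between DIV7 and DIV3, against 7.83% of all genes (5.13% higher). It was at 110 ± 7.69 CPM at DIV7 and 54.7 ± 19.6 CPM at DIV3 (SD, n = 2 libraries each), a log2 change of 1.01 ± 0.25 (edgeR quasi-likelihood adjusted p = 0.0344). The libraries of the 2 days did not overlap, but nor did they for Slc1a2, Slc1a1 and Slc38a1, which did not pass. How many of all genes did not overlap was not counted. Slc1a2 was at 245 ± 51.5 CPM at DIV7 and 148 ± 33.0 CPM at DIV3 (adjusted p = 0.0916), and Slc1a1 at 37.4 ± 1.63 CPM at DIV7 and 21.9 ± 5.30 CPM at DIV3 (adjusted p = 0.102, edgeR quasi-likelihood test). The other 5 had adjusted p-values of 0.352 to 0.967. The median log2 change was 0.34 for the 8 genes and -0.04 for all genes.

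The Slc6a11 call ended without DIV3 replicate 1 (adjusted p = 0.0992), DIV7 replicate 1 (0.213) or DIV7 replicate 2 (0.166), with log2 changes of 0.70 to 1.09, and under a stricter cell filter (adjusted p = 0.774, log2 change 0.38), finer clustering (0.0634) or thinning (0.0581). Of the 10 glia genes, 2 also rose in these neuronal sums, with a median log2 change of 1.37 over the 10, and their part in the members' values was not tested. Here too the clusters shifted. Cluster 19, led by Npas4, and cluster 8, led by Prox1 and of low depth, held most of the class at DIV7, and at DIV3 clusters 8 and 14 (led by Cck) did in replicate 1 and clusters 19, 8 and 2 in replicate 2.

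The difference between the 2 changes was tested directly, as a class by day term with the library as a block. It passed for 2 of the 8 genes, both above 0, against 7.11% of all genes (3.1% above and 4.01% below). Slc38a1 changed by 1.82 ± 0.25 log2 units more in astrocyte-like than in neuron-like cells (edgeR quasi-likelihood adjusted p = 0.00469), where the neuronal level was 92.7 ± 7.88 CPM at DIV7 and 114 ± 12.4 CPM at DIV3. Glul changed by 1.51 ± 0.35 more (adjusted p = 0.0346, edgeR quasi-likelihood test), with neuronal levels of 45.7 ± 16.2 CPM at DIV7 and 42.5 ± 7.43 CPM at DIV3. For Slc1a2 the difference of 2.50 ± 0.77 did not pass (edgeR quasi-likelihood adjusted p = 0.135), so a change particular to astrocyte-like cells was not shown for it. It passed in 4 of 21 alternatives, with log2 differences of 1.68 to 3.68 over all of them.

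**Figure D5:**
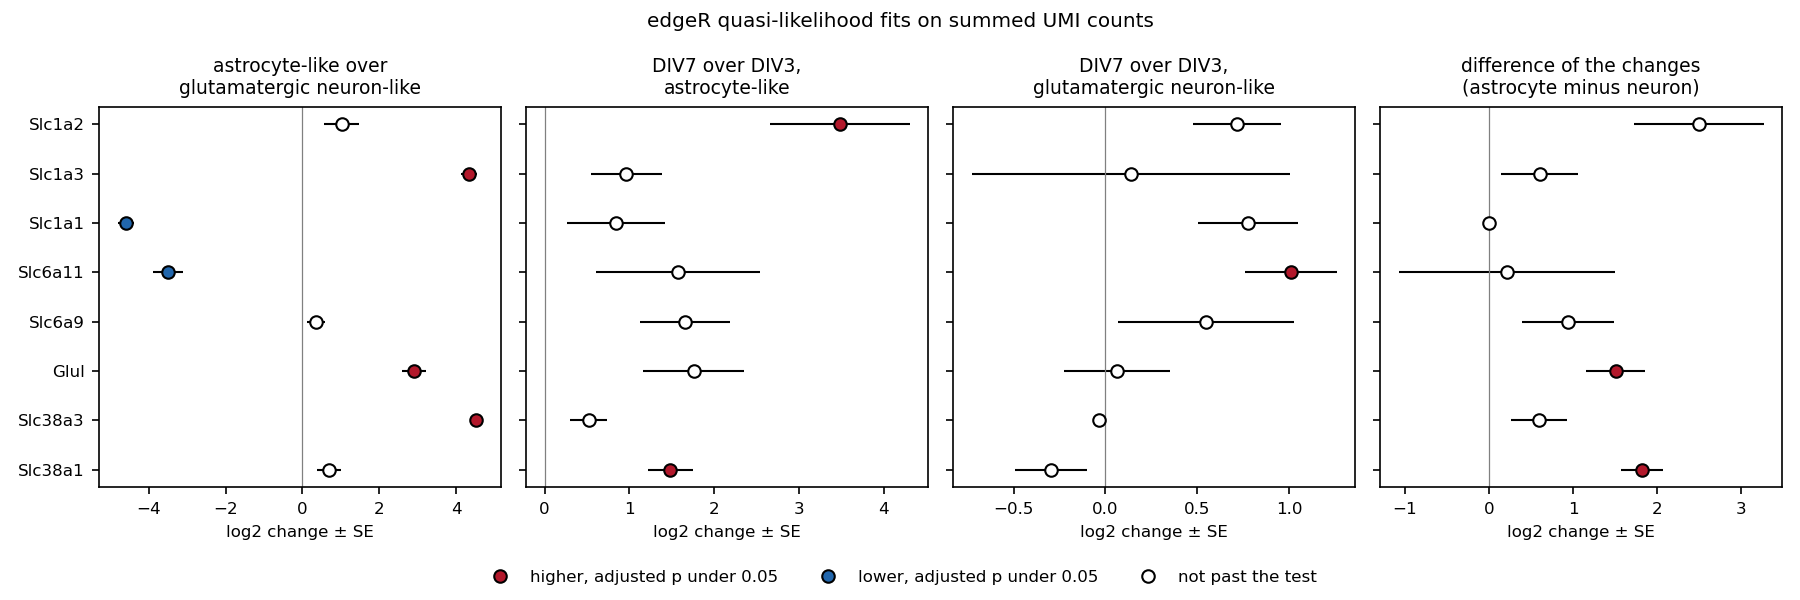
Each panel gives the log2 change ± SE (horizontal axis) of the 8 genes in 1 comparison, filled where the adjusted p is under 0.05. No bar is drawn where a change is too near 0 to give an error. Slc1a3, Glul and Slc38a3 are filled above 0 in the class comparison, and Glul and Slc38a1 in the difference of the changes.

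Slc38a1 passed this test under every alternative run, with adjusted p-values up to 0.0473. Glul did not pass without DIV3 replicate 1 (adjusted p = 0.198), DIV3 replicate 2 (0.0997) or DIV7 replicate 2 (0.166), nor with thinned cells (0.279), the stricter cell filter (0.341), doublets kept (0.0773), top doublet scores removed (0.153), members allowed in clustering (0.0646) or finer clustering (0.0660). Total-count scaling gave 643 genes higher and 432 lower in this test, against 478 higher and 619 lower with TMM, and both members kept their calls under it. The same sums enter all day and class comparisons, which are therefore not independent of each other.

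Around the 8 genes, a list of 47 other genes of transmitter uptake, synthesis, packaging and sensing held genes of both directions. Of 37 tested, 13 were higher and 16 lower, near the share of all genes (37.1% higher and 33.9% lower), in astrocyte-like than in glutamatergic neuron-like cells, with a median log2 change of -0.20. Lower were Gabbr2, a subunit of the GABA-B receptor (log2 change -7.26 ± 0.26), the vesicular glutamate transporters Slc17a7 (-7.16 ± 0.25) and Slc17a6 (-7.00 ± 0.28), the metabotropic glutamate receptor gene Grm5 (-3.73 ± 0.51) and the mitochondrial glutamate carrier Slc25a22 (-2.78 ± 0.27). Slc17a7 and Slc17a6 are also markers that named the glutamatergic class, so their differences are no independent result.

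Higher in astrocyte-like cells were the other mitochondrial glutamate carrier, Slc25a18 (60.9 ± 46.8 CPM against 2.05 ± 0.87 CPM in glutamatergic neuron-like cells, log2 change 4.60 ± 0.24), the glycine decarboxylase Gldc (3.60 ± 0.34) and pyruvate carboxylase Pcx (3.22 ± 0.18), which fills up the citric acid cycle for new glutamate. Of 8 genes that keep the ion gradients or couple astrocytes, 7 were tested, with 5 higher and 1 lower, against the same shares of all genes. The gap junction gene Gja1 (4.74 ± 0.21), also a marker that named the astrocyte-like class, and the potassium channel Kcnj10 (4.53 ± 0.21) were among the higher ones.

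In GABAergic against glutamatergic neuron-like cells 10 of 29 listed genes tested were higher and 3 lower, against 10.9% and 10.5% of all genes. Among them were the vesicular GABA transporter Slc32a1 (log2 change 8.56 ± 0.37) and the GABA-synthesising enzymes Gad2 (7.54 ± 0.39) and Gad1 (6.199 ± 0.22), which with Slc32a1 are also markers that named the class, and Slc17a7, with a log2 change of -3.76 ± 0.97. Slc17a7 is in turn a marker that named the glutamatergic class. Of the 6 gradient genes tested, Atp1b1 (0.86 ± 0.10) and Atp1b2 (0.66 ± 0.15) were higher.

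At DIV7 against DIV3, 4 of 39 listed genes tested were higher and 2 lower in astrocyte-like cells, near the 16.8% of all genes called. Slc25a18 rose (log2 change 2.17 ± 0.40), as did the GABA transaminase Abat (1.19 ± 0.25) and the creatine transporter Slc6a8 (1.16 ± 0.30), and the aspartate aminotransferase Got1 fell (-1.39 ± 0.29). The neuronal gene Slc17a7, named after its values were seen, also passed the test in these astrocyte-like sums, at 1.22 ± 0.17 CPM at DIV7 and 0.029 ± 0.041 CPM at DIV3, and how much neuronal RNA lies in the sums was not tested. Of the 8 gradient genes 5 rose, among them Gja1 (2.50 ± 0.49), Atp1b2 (1.40 ± 0.33), Kcnj10 (1.36 ± 0.27) and Atp1b1 (0.86 ± 0.23).

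In glutamatergic neuron-like cells 6 of 39 listed genes rose and 1 fell over the same days, against 7.83% of all genes called. Slc17a7 (log2 change 3.74 ± 0.56) and Grm5 (1.71 ± 0.23) rose, and the serine hydroxymethyltransferase Shmt2 fell (-1.17 ± 0.29). Of 6 gradient genes tested 2 rose, among them Atp1b2 (1.09 ± 0.27). The change differed between the classes for 5 of 43 listed genes, against 7.11% of all genes, including Slc25a22 (-1.37 ± 0.30), Got1 (-1.34 ± 0.30), the glutamine transporter Slc38a2 (1.00 ± 0.26) and Got2 (-0.84 ± 0.22), and for Kcnj10 (1.22 ± 0.27) and Gja1 (1.15 ± 0.28).

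The genes whose levels followed each member most closely were sought over 65 class-by-library sums, which share libraries and depth, among 8909 genes, with Pearson's r of log2(CPM + 10). Slc1a3 was most like Hepacam (r = 0.910), Zcchc24 (0.905) and Aldoc (0.904), and Slc38a3 like Kcnj10 (0.931), Mt2 (0.920) and Mlc1 (0.918). Slc1a2 was most like Fbrsl1 (0.843), Mmd2 (0.833) and Acsl6 (0.827), and Glul like Abca1 (0.865), S1pr1 (0.852) and Itgav (0.824). For Slc1a1 they were Plppr5 (0.892), Ppp1r16b (0.878) and Susd4 (0.860), and for Slc6a11 Nr4a2 (0.908), Gabra5 (0.889) and Camkv (0.889). Slc38a1 was closest to Ckap5 (0.873), Fads1 (0.859) and Fam184a (0.844). For Slc6a9 no gene came above Psph (0.663), Maoa (0.661) and Dlg5 (0.596). Aldoc, Mlc1, Acsl6 and S1pr1 are also markers that named the astrocyte-like class, so their likeness to members is no independent result.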

How the data were processed

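Single-cell 3' UMI counts of 7 libraries were analysed as deposited. The authors' matrices hold whole-number counts per gene and barcode, made with Cell Ranger 4.0.0 on mm9 per the submitters' processing notes, while the matrix headers name software version 3.0.2. Introns, strand and multi-mapping settings are not given in the sources used here.

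A barcode was kept from 500 genes up if no more than 10% of its UMIs were mitochondrial, and 178 Scrublet doublet calls (0.635% of scored cells, where 2.41% to 4.32% were expected from loading) were removed. Cells were clustered (scanpy 1.11.5, leidenalg 0.10.2; 2000 variable genes without the 8 members, 30 components, 15 neighbours, resolution 1). The 26 clusters were named from marker lists by a score of at least 0.25 and 1.25 times the next list, if no other list had more genes among a cluster's top 10. Clusters led by cell cycle genes were called cycling, and those failing a condition stayed unnamed. That scoring rule was set after the clusters were seen, and clusters 11, 15 and 22 of the astrocyte-like class have 0 of its markers among their top 10 genes. The study's own cell type names were not used here, and rebuilt names may differ from them. Members, lists and marker lists were chosen with earlier results of these data known.

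Counts were summed per class and library (at least 20 cells) and the sums were compared by edgeR 4.0.16 under R 4.3.3 (TMM factors, filterByExpr, robust quasi-likelihood fit, Benjamini-Hochberg over all genes tested, threshold 0.05). The class comparisons had the library as a block, and the day comparisons used all 7 libraries of a class. Printed CPM are per total UMIs without TMM. Pathway genes are named by the largest changes among those called with a mean of at least 20 CPM in the higher group, up to 8 between astrocyte-like and neuron-like cells and up to 4 elsewhere; some genes that this rule names are not reported here. Intervals and floors cover counting error only. Alternatives were total-count and DESeq2 1.42.0 scaling and tests, cell and count filters, doublets, clustering, thinning to 3000 UMIs, blocks and each library left out. The test code was checked on simulated counts.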

Additional observations from a re-analysis of the deposited data

Results flagged for a closer look

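For 2 of the 8 genes the change between DIV7 and DIV3 differed between astrocyte-like and glutamatergic neuron-like cells by a test of the difference itself, which called 7.11% of all genes. The difference was 1.51 log2 units for Glul and 1.82 log2 units for Slc38a1. Slc38a1 kept its call in all 21 alternatives, while Glul lost it in 9 of them (adjusted p up to 0.341, edgeR quasi-likelihood test). No group had the 4 samples that a check for a single distant sample needs.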

How the results depend on the processing

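Of the log2 changes of single members recomputed under the alternatives, 677 kept their direction and side of the threshold, 45 passed it newly, 36 lost it and 34 changed sign. The cause of these changes was not tested. Genes called, with members called beside them, were as follows in GABAergic against glutamatergic cells (2046 and 4): 822 and 2 with a stricter cell filter, 902 and 2 with thinned cells, and 1096 and 1 without the library block. In astrocyte-like cells at DIV7 against DIV3 (2455 and 2) they were 3696 genes with no low-count filter, 1398 and 1 with the stricter cell filter, and 4416 and 6 with a replicate block. There 4 members were called with DESeq2 (3355 genes), without the Wisp2-led cluster (3084) and with own-marker clusters only (2495). In neuron-like cells (1041 and 1) they were 2214 and 2 with no low-count filter, 1 and 0 with the stricter cell filter, and 353 and 0 with thinned cells. They were 1577 and 2 without the Prox1-led cluster, 2834 and 3 with a replicate block, and 697 and 0 with finer clustering. For the difference between the classes (1097 and 2) they were 2004 genes with no low-count filter, 184 and 1 with the stricter filter and 613 and 1 with thinned cells. There 1 member, Slc38a1 and not Glul, was called with doublets kept (1181 genes), with the top doublet scores removed (912), with members allowed in clustering (1036) and with finer clustering (741). With own-marker clusters only, 5 members were called (1384 genes, 963 higher and 421 lower).

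Leaving out 1 library at a time gave 8645 to 9755 genes and 5 to 7 members for astrocyte-like against neuron-like cells, 1392 to 2782 and 2 to 4 for GABAergic cells, 0 to 2381 and 0 to 3 for astrocyte-like days, 117 to 2815 and 0 to 3 for neuron-like days, and 54 to 1676 and 1 to 2 for the difference. The 0 came from edgeR without DIV3 replicate 1, where 3692 genes had an unadjusted p under 0.05. Without DIV7 replicate 1 or 2, 394 and 36 genes were called in astrocyte-like days and 117 and 146 in neuron-like days. Without DIV3 replicate 1 or 2, 368 and 2815 were called in neuron-like days. In the difference the count was 54 and 441 without DIV3 replicate 1 or 2, 1676 and 1657 without DIV5 replicate 1 or 2, and 441 and 161 without DIV7 replicate 1 or 2. The lone library then left on a day is assumed to vary like the others.

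Changes of sign were these log2 values. Slc6a9 between the classes was -0.055 with the stricter filter. Between neuron classes Slc1a1 was 0.088 with the stricter filter, and Slc1a3 was -0.15 with DESeq2, -0.10 with doublets kept, -0.14 with top doublet scores removed and -0.20 without the Prox1-led cluster. In neuron-like days Glul was -0.071 with top doublet scores removed, and Slc38a3 was 0.23 with the stricter filter, 0.25 with top doublet scores removed, 0.19 with members in clustering, 0.050 with finer clustering and 0.019 with a replicate block. The Slc1a1 difference was -0.0038 with no low-count filter, -0.78 with the stricter filter, -0.036 with doublets kept, -0.011 with top doublet scores removed, -0.61 with finer clustering and -0.078 with the class widened. With 1 library left out the log2 values ranged from -0.31 to 0.085 for Slc1a1 and -0.32 to 0.31 for Slc1a3 between neuron classes, -0.016 to 2.33 for Slc6a11 in astrocyte-like days, -0.53 to 1.33 for Slc1a3, -0.31 to 0.45 for Glul and -0.37 to 0.40 for Slc38a3 in neuron-like days, and -0.64 to 1.38 for Slc1a1, -0.17 to 1.35 for Slc1a3 and -1.17 to 1.501 for Slc6a11 in the difference.

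The difference between replicates 1 and 2 of a day was correlated across genes with that of another day. In astrocyte-like cells the correlation was 0.666 for DIV5 with DIV7 and 0.165 and 0.111 for DIV3 with DIV5 and DIV7. In neuron-like cells it was 0.149 to 0.337. Each value rests on 1 pair of libraries per day. The labels tie nothing to the number, so the replicate block was not taken as a pairing. With 25 to 29 GABAergic cells in 3 libraries, low genes were not detectable there, and 2 libraries a day limit the day comparisons.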
